A study of Mus musculus with 4 samples.

Results

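A set of 10 genes tied to brakes on T cell activation was followed in naive CD4 T cells of mice with and without BTG1 and BTG2. It held the ubiquitin ligase genes Cblb, Cbl, Itch, Peli1, Rnf128 and Nedd4. It also held the ligase adaptor genes Ndfip1 and Ndfip2 and the diacylglycerol kinase genes Dgka and Dgkz. The 10 were taken by name, out of 48858 genes with transcripts in the files, and their choice used no threshold on a measured value. There were 2 DKO libraries, from Btg1f/f Btg2f/f mice that also carried CD4-Cre, and 2 WT libraries, from littermates with the same floxed alleles and no Cre. CD4-Cre is active in developing T cells, so both genes are deleted in the T cell lineage, and Cre itself is present in the DKO group only. The cells were sorted as TCRb+ CD4+ CD25- cells with high CD62L and low CD44, and rRNA-depleted total RNA was sequenced. Age, sex and strain background are not stated in the labels.

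Naive T cells need a signal through the antigen receptor together with costimulation. Most of the genes described here encode proteins that hold that signal back or end it, and brake genes below names the set as a whole. CBL-B, c-Cbl, ITCH, Peli1, GRAIL (the product of Rnf128) and NEDD4 attach ubiquitin to signalling proteins, which marks them for degradation or changes their activity. The diacylglycerol kinases convert diacylglycerol, the messenger that recruits RasGRP1 and protein kinase C theta at the membrane, into phosphatidic acid. Several of these genes are known to be induced when T cells are made anergic, a state in which they no longer respond to antigen. BTG1 and BTG2 recruit the CCR4-NOT complex, a deadenylase that trims the poly(A) tail of mRNAs, and the title of the series ties them to mRNA destabilization and T cell quiescence.

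None of the set passed the test between the genotypes. Of the 10 genes, 9 had enough counts to be tested, and 0 were called by edgeR (quasi-likelihood F test, Benjamini-Hochberg adjustment over all 12863 genes tested, adjusted p under 0.05), against 16 (0.124%) of all genes, 7 of them (0.0544%) higher and 9 (0.07%) lower in DKO. DESeq2 also called 0 of the 9. Cblb and Peli1 had the smallest p-values, both with higher values in DKO, at an unadjusted p under 0.05. Such a p was reached by 492 genes (3.82%) in the same direction, by 560 (4.35%) in the other and by 1052 (8.18%) in all. Rnf128 was almost absent, and Dgka was the most abundant of the set per kilobase in every library. The median log2 fold change of the 9 tested genes was 0.11, beside −0.02 over all genes tested, with 6 above 0 and 3 below.

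The libraries held 13889894 to 17827631 estimated counts. The targeted genes checked the labels: Btg1 had 103 and 125 counts in DKO and 7378 and 5443 in WT, and Btg2 had 5 and 7 in DKO and 1295 and 1067 in WT. All 10 markers of naive CD4 T cells passed the filter, and their summed level was 3681 and 3568 CPM (the count rate per library, scaled by TMM) in DKO and 3192 and 3840 CPM in WT. Summed markers of some other T cell states were higher in both DKO libraries than in both WT libraries, although edgeR as reported called no single marker of those lists. Other settings did call some. Foxp3 and Cd44 were called in DESeq2 (adjusted p = 0.0316 and 0.0406) and with a replicate block (adjusted p = 0.00421 and 0.0197 by edgeR). Both were also called with protein-coding genes only (adjusted p = 0.0491 and 0.0409 by edgeR). The same held without a filter on low counts, with total counts, and with scaling to RNA polymerase III transcripts. Neither was called with an effective length offset or with limma on TPM. The 15 regulatory T cell markers, of which 12 passed the filter and none was at 0 in every library, summed to 157 and 180 CPM in DKO and 79.5 and 101 CPM in WT. All 12 had log2 values above 0, and 7 had an unadjusted p under 0.05 by edgeR, beside 3.82% of all genes. Foxp3, which specifies those cells, was at 5.15 and 10.5 CPM in DKO and 1.80 and 2.52 CPM in WT. Of the 10 effector and memory markers, 3 passed the filter and Gzmb was at 0. The 10 summed to 51.5 and 53.7 CPM in DKO and 29.0 and 30.2 CPM in WT. The 3 that passed, Cd44, Il2rb and Icos, were each higher in both DKO libraries. Among the sparse rest, Ccl5 and S100a6 were also higher in both DKO libraries. Ifng went the other way, with 0 and 1 counts in DKO and 1 and 6 in WT, and the others overlapped. The 7 CD8 T cell markers, of which 5 passed and Cd8a did not, summed to 101 and 94.9 CPM in DKO and 71.6 and 85.3 CPM in WT. Of the 5 that passed, 3 were higher in both DKO libraries, namely Cd8b1, Ctsw and Klrd1. Runx3, the most abundant, overlapped between the genotypes, at 48.1 and 45.6 CPM in DKO and 38.9 and 47.3 CPM in WT. Prf1 overlapped too, and Cd8a had 1 and 5 counts in DKO and 6 and 1 in WT. Implied fragment lengths also differed, at 138 ± 6.2 bases in DKO and 122 ± 2.8 bases in WT (SD, n = 2 each), as did the share of counts on protein-coding genes, at 46.8 ± 2.98% in DKO and 37.3 ± 2.26% in WT. These are bulk RNA values, so fewer cells of a type and less RNA per cell cannot be told apart.

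Levels of the genes can be ordered only per length, since their transcripts differ several-fold in size. On the scale of CPM per kilobase of effective length, Dgka averaged 172 ± 9.29 in DKO and 165 ± 3.85 in WT (SD, n = 2 each). Ndfip1, which encodes a membrane adaptor that activates ITCH and related ligases, followed with 74.4 ± 6.36 in DKO and 63.9 ± 2.93 in WT. Dgkz had 44.6 ± 3.02 in DKO and 46.4 ± 5.06 in WT, and Peli1 had 50.9 ± 1.52 in DKO and 39.8 ± 2.13 in WT. Cbl stood at 24.4 ± 1.45 in DKO and 22.7 ± 0.658 in WT, Cblb at 14.6 ± 0.631 in DKO and 11.0 ± 0.716 in WT, and Itch at 12.6 ± 3.10 in DKO and 12.7 ± 3.14 in WT. Ndfip2 had 3.67 ± 0.734 in DKO and 4.22 ± 0.387 in WT, and Nedd4 had 0.607 ± 0.106 in DKO and 0.349 ± 0.119 in WT.

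Most neighbours in this order kept their places in all 4 libraries, with a pair of exceptions. Peli1 lay above Dgkz in both DKO libraries and below it in both WT libraries. Cblb lay above Itch in DKO replicate 2 alone, and the ranges of those 2 genes overlapped.

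**Figure D1:**
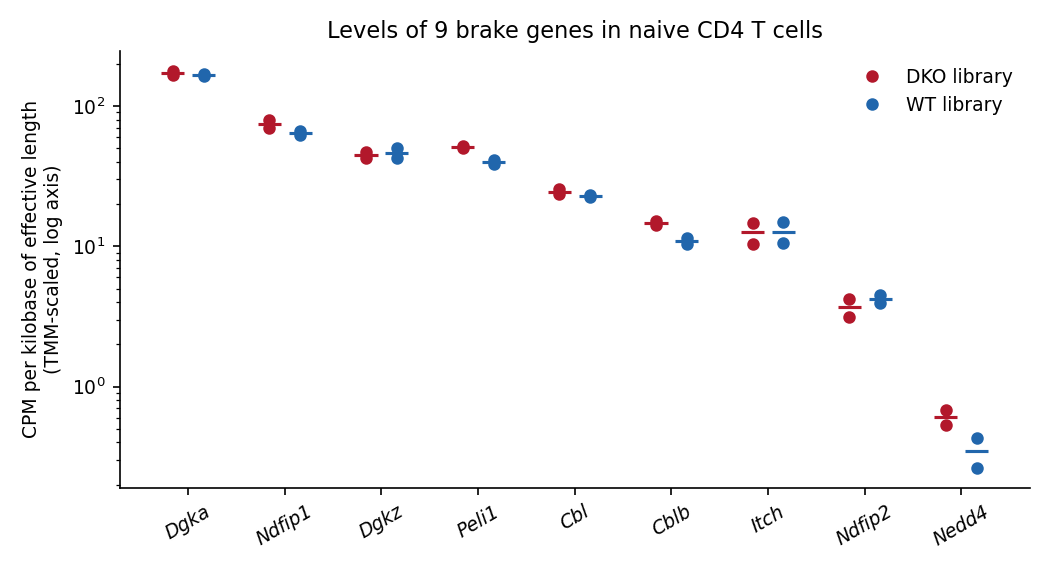
Level of each tested gene in each library, as TMM-scaled CPM per kilobase of effective length on a log axis; points are libraries, bars the mean of the 2 libraries of a genotype. The levels span from Dgka, at 172 in DKO and 165 in WT, down to Nedd4, at 0.607 in DKO and 0.349 in WT; Rnf128, with 1 count in all, is not drawn.

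Among the ubiquitin ligases, the E3 gene Cblb (ENSMUSG00000022637, chromosome 16, 52031225 to 52208048, plus strand, GRCm38) is the one best known for setting the need for CD28 costimulation in mouse T cells. Its estimated counts were 1482 and 2006 in the DKO libraries and 986 and 748 in the WT libraries. As TMM-scaled levels these were 87.7 and 93.1 CPM in DKO and 71.1 and 64.9 CPM in WT. Each DKO value exceeded each WT value, as was so for 19.8% of all genes tested. The log2 fold change was 0.41 (SE 0.13, 95% interval 0.11 to 0.71), with an adjusted p of 0.415 by edgeR (unadjusted p = 0.0132). The files hold 1 Cblb transcript, so no count of it was divided among isoforms.

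Its paralogue Cbl (ENSMUSG00000034342, chromosome 9, 44142976 to 44234049, minus strand), whose product c-Cbl ends signalling by ubiquitinating active receptors and kinases, had 1943 and 2532 counts in DKO and 1743 and 1329 in WT. That corresponded to 115 and 117 CPM in DKO and 126 and 115 CPM in WT. The groups overlapped, the small difference had the opposite sign to that per kilobase, and the log2 fold change was −0.05 (SE 0.13, 95% interval −0.35 to 0.24, adjusted p = 0.961 by edgeR). The ratio of Cblb to Cbl counts, which does not depend on how the libraries are scaled, was 0.763 and 0.792 in DKO and 0.566 and 0.563 in WT. On the log2 scale the ratio differed by 0.46 between the genotypes, with a pooled SD of 0.028. The smallest two-sided p that exact permutation of 2 against 2 libraries allows is 0.333, so this ratio is a description, and the pair was chosen after its values were seen.

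Peli1 (ENSMUSG00000020134, chromosome 11, 21091291 to 21150323, plus strand) encodes Pellino1, a RING-type ligase known in mouse T cells for limiting the NF-kB subunit c-Rel. It had 2750 and 3627 counts in DKO and 1634 and 1535 in WT. Its level was 163 and 168 CPM in DKO and 118 and 133 CPM in WT, with both DKO libraries above both WT libraries. The log2 fold change was 0.40 (SE 0.14, 95% interval 0.09 to 0.71), and the gene did not pass (adjusted p = 0.465 by edgeR, unadjusted p = 0.0175). When the libraries were scaled to RNA polymerase III transcripts, which moved the median of all genes to 0.90, Peli1 was called at 1.33 (adjusted p = 0.045 by edgeR), a difference of 0.44 from that median. The ratio of Peli1 to Cbl counts was 1.42 and 1.43 in DKO and 0.937 and 1.16 in WT, without overlap. It shares its denominator with the ratio of Cblb to Cbl, so it is not a separate observation. This ratio too is a description and carries no test.

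The summed levels of regulatory T cell, effector or memory, and CD8 T cell markers were higher in both DKO libraries than in both WT libraries, as given above, in the same direction as Cblb and Peli1; their part in the values of both genes was not tested. The implied fragment length and the protein-coding share moved the same way, and their part was not tested either.

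The HECT-type ligases gave no call. Itch (ENSMUSG00000027598, chromosome 2, 155133509 to 155226855, plus strand), whose loss in mice leads to T cell-driven inflammation, had 782 and 626 counts in DKO and 664 and 469 in WT. This was 46.3 and 29.0 CPM in DKO and 47.9 and 40.7 CPM in WT, so DKO replicate 2 was lowest and the groups overlapped. The log2 fold change was −0.24 (SE 0.22, 95% interval −0.76 to 0.29, adjusted p = 0.854 by edgeR), and it was 0.09 without DKO replicate 2. Nedd4 (ENSMUSG00000032216, chromosome 9, 72662346 to 72749852, plus strand), the founding member of the family, had 20 and 65 counts in DKO and 19 and 15 in WT. Its log2 fold change of 0.66 (SE 0.60, 95% interval −0.71 to 2.03, adjusted p = 0.845 by edgeR) rested on DKO replicate 2, without which it was −0.15.

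Rnf128 (ENSMUSG00000031438, chromosome X, 139563316 to 139673145, plus strand), the gene of the anergy-related ligase GRAIL, had 0 and 1 counts in DKO and 0 and 0 in WT over its 3 transcripts. A floor of 3 counts corresponds to 0.181 and 0.168 CPM in DKO and 0.2 and 0.216 CPM in WT, counting error only. These floor values are per total estimated counts, without TMM scaling. No fold is given, since both groups were under that floor.

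The adaptors Ndfip1 and Ndfip2 bind NEDD4-family ligases at membranes and release them from autoinhibition. Ndfip1 (ENSMUSG00000024425, chromosome 18, 38410396 to 38465303, plus strand) had 942 and 1341 counts in DKO and 692 and 617 in WT. Its level was 55.7 and 62.2 CPM in DKO and 49.9 and 53.5 CPM in WT, both DKO libraries above both WT libraries by a small margin. The log2 fold change was 0.19 (SE 0.14, 95% interval −0.12 to 0.50, adjusted p = 0.787 by edgeR).

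Ndfip2 (ENSMUSG00000053253, chromosome 14, 105258573 to 105309298, plus strand) was the sparser of the adaptors, with 118 and 177 counts in DKO and 137 and 111 in WT. Its level was 6.98 and 8.21 CPM in DKO and 9.88 and 9.63 CPM in WT, so both DKO libraries lay below both WT libraries, as for 18.8% of all genes tested. The log2 fold change was −0.36 (SE 0.21, 95% interval −0.84 to 0.12, adjusted p = 0.716 by edgeR). Within each library, Ndfip1 had 7.98 and 7.58 times the counts of Ndfip2 in DKO and 5.05 and 5.56 times in WT, a log2 difference of 0.55 with a pooled SD of 0.079. This ratio too was chosen after its values were seen and carries no test.

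**Figure D2:**
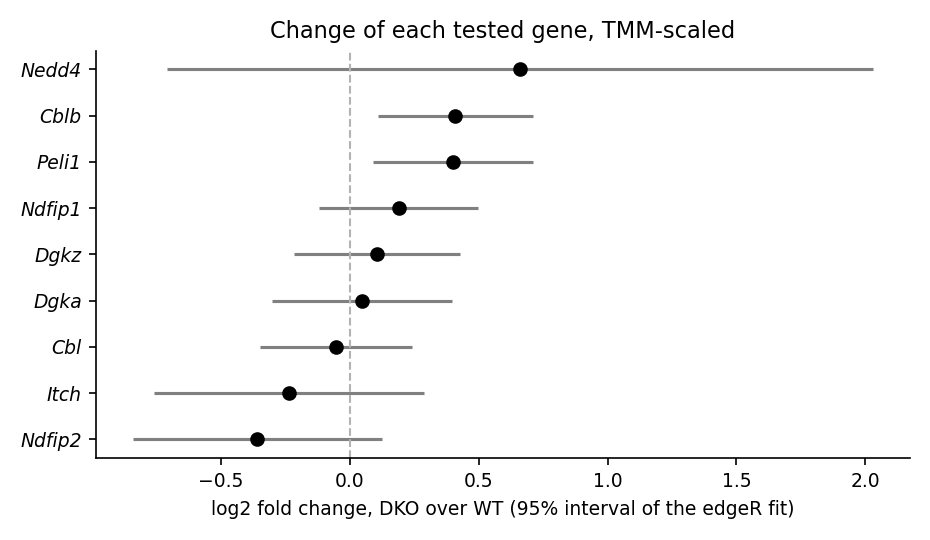
Log2 fold change, DKO over WT, of each tested gene under TMM scaling; points are the edgeR estimates from 2 DKO and 2 WT libraries and lines the 95% interval of each single gene, not adjusted for the number of genes. The intervals of Cblb (0.11 to 0.71) and Peli1 (0.09 to 0.71) lie above 0, and those of the other 7 genes include 0.

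The diacylglycerol kinases did not differ beyond the spread of the libraries. Dgka (ENSMUSG00000025357, chromosome 10, 128720134 to 128744855, minus strand) had 8068 and 9491 counts in DKO and 6057 and 5205 in WT. This was 477 and 440 CPM in DKO and 437 and 451 CPM in WT, with a log2 fold change of 0.05 (SE 0.15, 95% interval −0.30 to 0.40, adjusted p = 0.973 by edgeR). Dgkz (ENSMUSG00000040479, chromosome 2, 91932824 to 91975864, minus strand) had 2240 and 3177 counts in DKO and 1678 and 1604 in WT. Its level was 132 and 147 CPM in DKO and 121 and 139 CPM in WT, with overlapping groups and a log2 fold change of 0.11 (SE 0.14, 95% interval −0.22 to 0.43, adjusted p = 0.910 by edgeR). The Dgka to Dgkz count ratio was 3.6 and 2.99 in DKO and 3.61 and 3.25 in WT, which overlap. Exons of both genes overlap genes on the opposite strand. Pmel overlaps Dgka and had 121 and 123 counts in DKO and 172 and 69 in WT. Gm9821 overlaps Dgkz and had 31 and 64 counts in DKO and 46 and 12 in WT. The strand setting of the counting is not given in the sources used here. Reads that lie on the overlapping stretches of the exons therefore cannot be told apart.

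**Figure D3:**
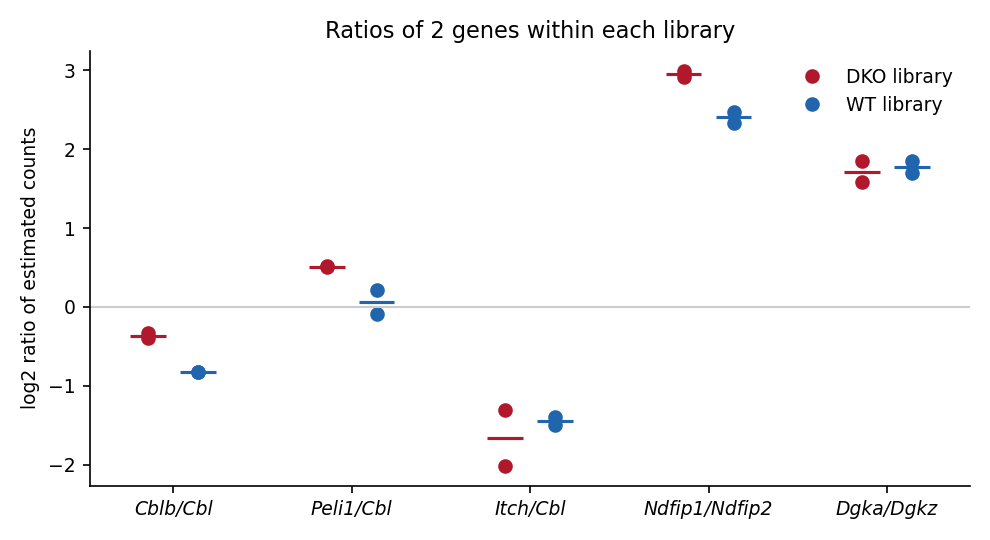
Log2 ratio of the estimated counts of 2 genes within each library; points are libraries and bars the mean of each genotype. Cblb/Cbl, Peli1/Cbl and Ndfip1/Ndfip2 separate the DKO from the WT libraries, by 0.46, 0.45 and 0.55 on the log2 scale, whereas Itch/Cbl and Dgka/Dgkz overlap. Cblb/Cbl and Peli1/Cbl share a denominator. Exact permutation of 2 against 2 libraries allows no two-sided p under 0.333, so the separations are descriptions.

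The 10 genes have 59 transcripts in the files, and 30 of them had enough counts to be tested. By the same edgeR test, adjusted over 27379 transcripts, 0 of the 30 were called, as were 2 (0.0073%) of all; at an unadjusted p under 0.05 the share of all transcripts was 5.0%, and 3 of the 30 had such a p, the only Cblb transcript (log2 0.43), Dgkz-209 and Itch-202. DESeq2 called 1 of them, Itch-202. A test of transcript use, which asks whether the mix of a gene's transcripts differs between genotypes, covered 6 of the 10 genes and called none of them, against 33 of 6148 genes (0.537%), and 357 genes (5.81%) had an unadjusted p under 0.05. Itch came nearest (adjusted p = 0.0723, unadjusted p = 6.29e-04 by edgeR), followed by Ndfip2 (adjusted p = 0.492) and Dgkz (adjusted p = 0.846).

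For Itch, the transcript with the widest gap was Itch-202, with 0 and 0 estimated counts in DKO and 23 and 65 in WT. It has the same coding length as Itch-201, 2592 bases, and adds a non-coding exon at chromosome 2, 155157774 to 155157975 on GRCm38. None of its 5279 words of 31 bases is found in it alone among the Itch transcripts, so its counts depend wholly on how shared reads were divided. Itch-201 held 63.8 and 53.3% of the gene's counts in DKO and 62.4 and 68.5% in WT. Transcripts annotated with a retained intron, led by Itch-203, held 27.5 and 31.7% in DKO and 26.0 and 11.7% in WT, so WT replicate 2 stood apart from the other 3 libraries.

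Dgka counts were split mainly between a full-length coding transcript and one annotated as a target of nonsense-mediated decay. The coding transcript Dgka-201 held 68.1 and 69.6% in DKO and 76.1 and 67.9% in WT. Dgka-203 held 31.5 and 29.7% in DKO and 23.0 and 31.5% in WT, so the groups overlapped. Dgka-203 lacks the coding exon of 89 bases at chr10:128731324-128731412 (minus strand, GRCm38), a length that is not a multiple of 3, and its annotated reading frame is 759 bases long against 2190 in Dgka-201. It also starts at another first exon of 48 bases, and 74 of its 2726 words of 31 bases occur in no other Dgka transcript. The exon is shown because it separates both transcripts, as read from the GENCODE M21 transcript, with the exon in capitals and the adjoining exons in lower case.
Dgka exon: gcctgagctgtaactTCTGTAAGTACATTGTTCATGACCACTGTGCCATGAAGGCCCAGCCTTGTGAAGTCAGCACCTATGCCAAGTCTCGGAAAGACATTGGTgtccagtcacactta

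Cbl likewise had a shorter coding form. Cbl-211, the longest transcript, held 74.4 and 74.3% of the counts in DKO and 76.7 and 72.7% in WT. Cbl-204 held 18.5 and 16.4% in DKO and 20.1 and 20.6% in WT, and both DKO values lay below both WT values. As a transcript it had 359 and 415 counts in DKO and 351 and 274 in WT, and it was not called (log2 −0.26, adjusted p = 1.0 by edgeR). Cbl-204 lacks 51 bases of coding sequence at chr9:44164207-44164257 (minus strand, GRCm38), which keeps the reading frame, and most of the long 3′ end of Cbl-211. The missing stretch runs from the linker helix into the start of the RING finger, the part of c-Cbl that a deletion in the transforming 70Z form of the mouse protein is known to remove. In Cbl-204, 28 of 2779 words of 31 bases occur in no other Cbl transcript, so few reads could tell it apart. The segment is shown in capitals within the sequence of Cbl-211, because its absence is what marks Cbl-204.
Cbl segment: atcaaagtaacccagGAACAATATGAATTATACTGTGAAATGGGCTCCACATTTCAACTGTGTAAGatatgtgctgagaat

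Dgkz transcripts differed in their first exon. Dgkz-201 held 75.9 and 80.3% of the counts in DKO and 81.1 and 84.9% in WT. Dgkz-202, which starts upstream, had 235 and 140 counts in DKO and 83 and 28 in WT, a log2 fold change of 1.30 that was not called (adjusted p = 1.0 by edgeR). Its share of the gene was 10.5 and 4.41% in DKO and 4.96 and 1.73% in WT, which overlap. Dgkz-203, with a longer coding sequence of 3369 bases against 2787 in Dgkz-201, held 8.33 and 8.38% in DKO and 8.08 and 4.54% in WT. The coding parts of the first exons of Dgkz-201 (chr2:91963286-91963446) and Dgkz-202 (chr2:91975567-91975778, both minus strand, GRCm38) are given because reads on them separate the transcripts, with the start codon in capitals.
Dgkz-201 first coding exon: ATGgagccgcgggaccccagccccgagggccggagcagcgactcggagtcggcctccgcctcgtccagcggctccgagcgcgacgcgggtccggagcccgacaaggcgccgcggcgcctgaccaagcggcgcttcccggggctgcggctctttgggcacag
Dgkz-202 first coding exon: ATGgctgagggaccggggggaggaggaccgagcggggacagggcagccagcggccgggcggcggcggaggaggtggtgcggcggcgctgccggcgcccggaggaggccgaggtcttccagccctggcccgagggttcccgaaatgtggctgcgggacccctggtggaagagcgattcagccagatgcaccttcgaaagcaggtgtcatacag

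The remaining genes were read mostly as 1 transcript or were sparse. The main Peli1 transcript held 94.3 and 91.9% of Peli1 counts in DKO and 86.2 and 93.2% in WT. For Ndfip2, the transcript with the longer coding sequence (1014 bases) had 48 and 32 counts in DKO and 74 and 58 in WT, whereas one with 934 coding bases, whose words all occur in other Ndfip2 transcripts, had 33 and 93 in DKO and 28 and 41 in WT. Neither was called.

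**Figure D4:**
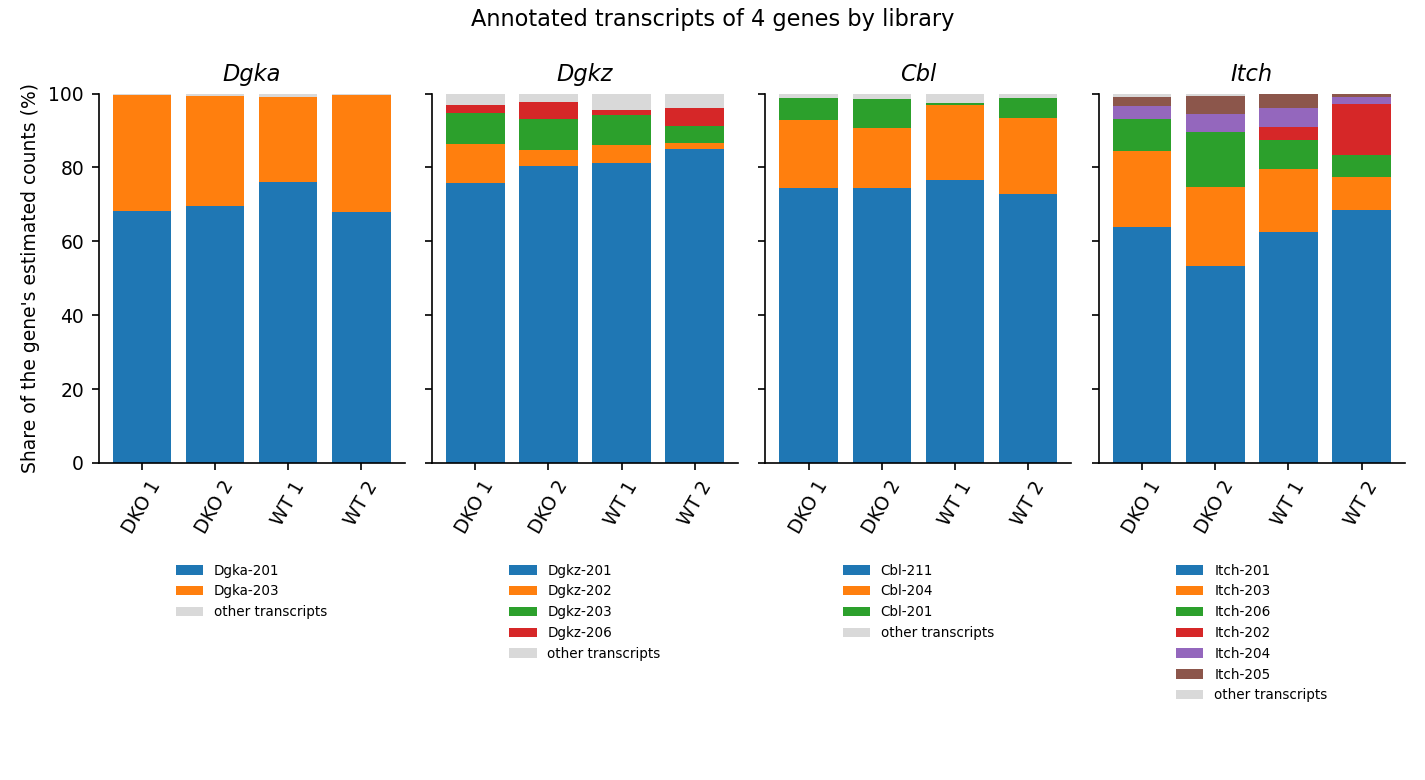
Share of each gene's estimated counts, in percent, assigned to its annotated transcripts in each of the 4 libraries, for Dgka, Dgkz, Cbl and Itch; transcripts that stay under 4% in every library are pooled as other transcripts. Dgka-203 takes 23.0 to 31.5% in all libraries. Itch-202 was assigned 0 estimated counts in both DKO libraries, a value that depends wholly on how shared reads were divided.

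Genes around the brakes in the same pathways also gave no call. Of 75 genes in 7 lists, 63 were tested and 0 passed edgeR's test after adjustment. At an unadjusted p under 0.05, 10 were higher and 3 lower in DKO, beside 3.82% and 4.35% of all genes. The lists were chosen with earlier results of these data known, so these counts are a description. DESeq2 called 4 of them, Nrp1, Izumo1r, Junb and Tnfaip3, and 42 higher and 126 lower among the 25924 genes it tested. Among NEDD4-family ligases outside the set (5 of 7 tested, median log2 −0.05), Smurf1, a ligase of TGF-beta signalling, was at 0.44 (adjusted p = 0.487) and its relative Smurf2 at −0.17 (adjusted p = 0.801). Among CBL and receptor adaptor partners (9 of 10 tested, median 0.20), Sh3kbp1, which encodes the CBL-binding adaptor CIN85, was at 0.31 and Sla, whose product directs c-Cbl to the antigen receptor, at 0.27.

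Substrates of the ligases had a median of 0.11 (11 of 11 tested). Junb, an AP-1 subunit that ITCH ubiquitinates, had 330 and 229 CPM in DKO and 525 and 611 CPM in WT, a log2 fold change of −1.02 (adjusted p = 0.146 by edgeR). Jun, another AP-1 subunit, had 377 and 268 CPM in DKO and 402 and 506 CPM in WT (log2 −0.49). Both genes had lower values in both DKO libraries without passing the test, and Itch itself overlapped between the groups. Junb was called in DESeq2 (adjusted p = 1.83e-04), with a replicate block (adjusted p = 0.0273 by edgeR), with protein-coding genes only (adjusted p = 0.0353) and without a filter (adjusted p = 9.5e-07). It was not called with total counts (log2 −0.70, adjusted p = 0.0501 by edgeR) or deposited TPM (log2 −0.65, adjusted p = 0.23 by limma). With polymerase III scaling the log2 value was only −0.13 (adjusted p = 0.77 by edgeR). Without DKO replicate 2 it was −0.76.

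The other diacylglycerol kinase genes went both ways (4 of 8 tested, median 0.04), with log2 values from −0.20 to 0.63, among them Dgkh at 0.63 and Dgkd at 0.23, and none was called. Diacylglycerol effectors (12 of 15 tested) had a median of 0.18, and among them Prkcb, a diacylglycerol-dependent protein kinase C gene, was at 0.32 and the Ras gene Hras at −0.49. Ubiquitin enzymes tied to the ligases (12 of 14 tested) had a median of 0.02. Tnfaip3, which encodes the NF-kB inhibitor A20, had 109 and 129 CPM in DKO and 229 and 171 CPM in WT (log2 −0.75, adjusted p = 0.215 by edgeR). It was called in DESeq2 (adjusted p = 0.0156) and without a filter (adjusted p = 0.0016 by edgeR). It was not called with protein-coding genes only (adjusted p = 0.0619 by edgeR) or a replicate block (adjusted p = 0.0875 by edgeR). Its log2 value was −0.94 without WT replicate 2 and 0.13 with polymerase III scaling. Usp8, a deubiquitinase, was at 0.43 (adjusted p = 0.497).

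The anergy programme list had a median of 0.38, beside −0.02 over all genes tested, with 9 genes above 0 and 3 below. At an unadjusted p under 0.05 by edgeR, 7 of its 12 tested genes were higher, as were 3.82% of all genes. No member passed the adjusted test. The list was chosen with earlier results of these data known, so its share is a description and does not measure an excess. Its smallest p-values belonged to Nrp1 (log2 2.84, adjusted p = 0.0948 by edgeR), with 5.44 and 9.0 CPM in DKO and 1.44 and 0.520 CPM in WT, and to Izumo1r (log2 0.84, adjusted p = 0.181), with 77.4 and 75.0 CPM in DKO and 34.6 and 50.4 CPM in WT. Nrp1 and Izumo1r were called in DESeq2 (adjusted p = 4.23e-04 and 0.0168), with a replicate block (adjusted p = 0.00106 and 0.0119 by edgeR) and with protein-coding genes only (adjusted p = 0.0113 and 0.0423). They were also called without a filter, with total counts and with polymerase III scaling. Neither was called with an effective length offset or with limma on TPM. With 1 library left out, Nrp1 was called without DKO replicate 1 (adjusted p = 0.0485 by edgeR) and without WT replicate 1 (adjusted p = 0.00935), and Izumo1r without WT replicate 2 (adjusted p = 0.0185). Both also belong to the regulatory T cell markers given above, whose part was not tested.

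The direction of the small differences depended partly on scaling. Cblb, Peli1 and Ndfip1 lay above the median of all genes in 15 of 15 alternative settings, by 0.36 to 0.47, 0.29 to 0.51 and 0.11 to 0.32. Ndfip2 lay below that median in all 15, by −0.44 to −0.13. The settings reused the same libraries, and subtracting the median takes out most of a change in scaling. The crossed replicate block among them was chosen after seeing the data. Their agreement is therefore a description and not separate support. Total counts and polymerase III scaling moved the median of all genes to 0.32 and 0.90, and under both the values of Itch and Cbl lay above 0 but below that median. With deposited TPM, Cbl and Itch also lay above the median, by 0.20 and 0.07. Ndfip2 lay above 0 with polymerase III scaling (0.57) and with deposited TPM (0.14), and below the median in each.

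**Figure D5:**
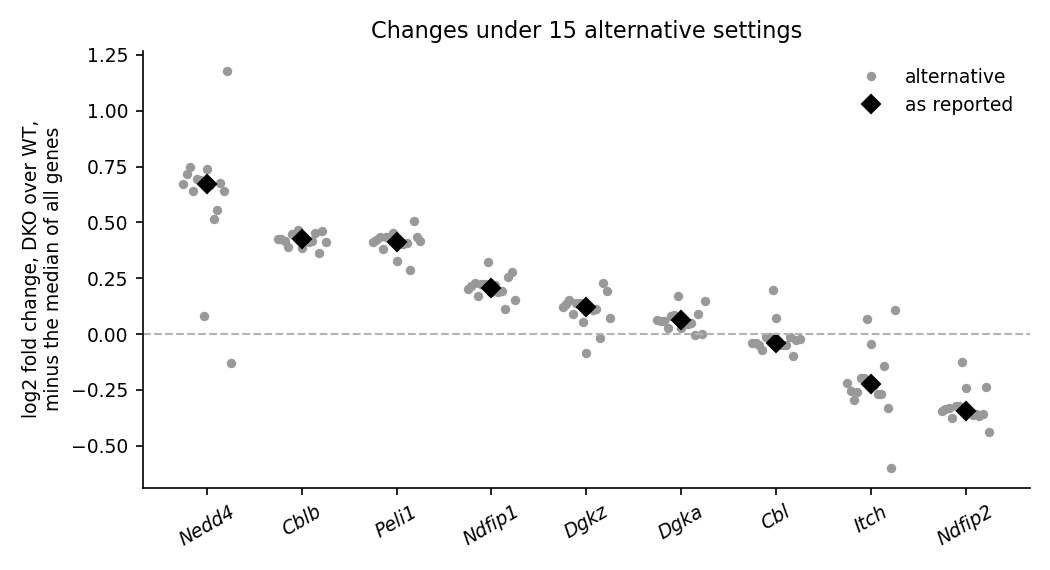
Log2 fold change, DKO over WT, of each tested gene minus the median over all genes of the same fit; diamonds are the values as reported and grey points 15 alternative settings. Cblb, Peli1 and Ndfip1 stay above 0 and Ndfip2 stays below 0 in all of them, while Nedd4, with at most 65 counts, spans −0.13 to 1.18. The settings reuse the same libraries, so they are not separate tests.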

How the data were processed

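Abundances per transcript had been estimated with kallisto, and mm10 and GRCm38 are the builds named, per the submitters' processing notes; for its version, strand setting and annotation, nothing is given in the sources used here. Estimated counts as deposited, per the file headers, are not scaled for depth or length. The deposited TPM values, per the file headers, had been divided by effective length and scaled to a constant total per library by the authors.

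Of 126782 transcripts, 98.7% were joined by identifier to GENCODE M21, summed to genes and rounded; 0.822 to 0.852% of the counts had no gene and were left out. The gene and transcript fits used edgeR 4.0.16 under R 4.3.3 (filterByExpr, TMM, robust dispersion, quasi-likelihood F test on genotype, Benjamini-Hochberg adjustment at 0.05) and transcript use with diffSpliceDGE. SE is the absolute log2 fold change over the square root of F. CPM uses TMM-scaled library sizes. Levels per kilobase use the effective lengths as deposited, and not all deposited transcript lengths match GENCODE M21. Cblb-201 had 6323 bases as deposited but 6618 different words of 31 bases in GENCODE M21. Ndfip1-201 had 930 bases as deposited but 1362 such words. Alternatives used DESeq2 1.42.0 and limma 3.58.1 on log2(TPM + 0.1). The functions were tested on simulated data.

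The labels do not say that libraries are separate animals beyond speaking of pairs of mice, so p-values measure the spread between these libraries. The members and lists were chosen with earlier results of these data known. Named genes are all members, Btg1 and Btg2, the 2 genes of each pathway list with the smallest p where none passed, the most abundant member of each marker list, and Foxp3. For marker lists not described in the report, the summed level was 166 and 150 CPM in DKO and 143 and 184 CPM in WT for B cells, 16.1 and 18.8 CPM in DKO and 16.2 and 20.5 CPM in WT for myeloid cells, and 31.5 and 38.3 CPM in DKO and 36.9 and 38.0 CPM in WT for NK and innate lymphoid cells (Ncr1 at 0). Their most abundant members were Ighm (log2 −0.05), Cst3 (0.21) and Gata3 (−0.18), beside Tcf7 (−0.12), Cd44 (0.86) and Runx3 (0.12) for naive, effector and CD8 T cells.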

Additional observations from a re-analysis of the deposited data

How the results depend on the processing

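With TMM scaling 7 genes were called higher and 9 lower by edgeR, or 43.8% higher; with total counts it was 158 and 63 (71.5% higher), with polymerase III scaling 261 and 17 (93.9%), with protein-coding genes only 35 and 16 (68.6%), with an effective length offset 13 and 18, without a filter 141 and 254, in DESeq2 42 and 126, and with limma on TPM as deposited 1 and 5 or rescaled 4 and 2. Brake genes called were 0 in each setting except polymerase III scaling, with 1, Peli1. Brake transcripts called were 1 in DESeq2 and 1 without a filter, in each case Itch-202. Pathway list genes called were 4 in DESeq2, 5 without a filter, 3 with protein-coding genes only, 4 with total counts and 6 with polymerase III scaling, against 0 as reported; the cause was not tested.

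With a replicate block, 53 genes were called higher and 90 lower, with 0 brake genes and 3 pathway list genes. Same-numbered libraries deviated apart (r −0.32 over genes, 2 pairs), so the numbers were not taken as pairs; a crossed replicate block, chosen after seeing the data, called 136 higher and 384 lower, with 5 pathway list genes. Leaving out 1 library gave 12 to 34 genes higher, 28 to 131 lower, 0 brake genes and 0 to 2 pathway list genes; the highest counts came without WT replicate 1 (34 and 131), with 30 and 50 without WT replicate 2, 15 and 37 without DKO replicate 1 and 12 and 28 without DKO replicate 2.

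Signs reversed for some named genes. With rescaled TPM the log2 values became 0.25 for Cbl, 0.16 for Gata3, 0.13 for Itch, 0.10 for Smurf2 and 0.056 for Tcf7. With deposited TPM they were 0.46 for Cbl, 0.36 for Gata3, 0.34 for Ighm, 0.33 for Itch, 0.14 for Ndfip2, 0.31 for Smurf2 and 0.29 for Tcf7. With polymerase III scaling they were 0.85 for Cbl, 0.75 for Gata3, 0.47 for Hras, 0.88 for Ighm, 0.60 for Itch, 0.41 for Jun, 0.57 for Ndfip2, 0.73 for Smurf2, 0.82 for Tcf7 and 0.13 for Tnfaip3. With total counts they were 0.28 for Cbl, 0.16 for Gata3, 0.29 for Ighm, 0.065 for Itch, 0.16 for Smurf2 and 0.22 for Tcf7. With 1 library left out, values ran over 0 from −0.099 to 0.01 for Cbl, −0.59 to 0.087 for Itch, −0.15 to 1.188 for Nedd4, −0.019 to 0.49 for Cst3, −0.235 to 0.164 for Ighm, −0.014 to 0.282 for Runx3 and −0.312 to 0.104 for Tcf7; the sign turned for Itch and Nedd4 without DKO replicate 2 and for Cbl without WT replicate 1. Transcripts were not run with the length offset, and transcript use was run in the edgeR count fits without that offset, each with 0 brake genes called. Rnf128, with 1 count in all, could not be tested at this depth, and Nedd4 rested on at most 65 counts a library.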
